A study of Mus musculus with 12 samples.

Results

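Genes that mark spermatogonia and germline stem cells were followed through RNA-seq of mouse testis, with skeletal muscle as the background tissue. They were chosen by name (Gfra1, Zbtb16, Id4, Nanos2, Nanos3, Sall4, Lin28a, Dmrt1, Kit and Uchl1), with earlier results of these data known. No measured value entered the rule that picked them. Of the 10 genes, 10 were found, once each, among the 47730 features of the deposited table. In testis the levels of the 10 genes overlapped between the genotype groups for every gene, and none of the 8 that could be tested passed. Over all genes tested there, the groups did not overlap for 13.4%, and 0.0205% passed. Between the tissues they parted: Dmrt1, Lin28a, Id4, Uchl1 and Kit were higher in testis, Zbtb16 and Sall4 were higher in muscle, and Gfra1 stood at nearly the same level in both.

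Spermatogonia are the germ cells at the rim of the seminiferous tubule, and a small set of undifferentiated ones includes the stem cells that maintain sperm production. Sertoli cells and other somatic cells release GDNF, which acts on these cells through the receptor pair GFRA1 and RET, while exit towards differentiation follows retinoic acid and is marked by the receptor tyrosine kinase KIT. Transcription regulators (ZBTB16, ID4, SALL4), RNA-binding proteins (NANOS2, NANOS3, LIN28A) and the ubiquitin hydrolase UCHL1 are widely used to mark the undifferentiated cells, and DMRT1 controls the switch between mitosis and meiosis. In adult testis, meiotic and later germ cells far outnumber the undifferentiated spermatogonia.

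The study compared wild-type mice (Bckdk+/+) with mice carrying a mutant allele on both chromosomes (BckdkM/M, KO in the sample titles), all male C57Bl/6J animals of 5 to 6 months, with tissues taken between ZT6 and ZT7. Bckdk encodes the kinase that restrains the breakdown of branched-chain amino acids. RNA came from testis and from gastrocnemius and plantaris muscle combined, and polyA RNA was sequenced. The 12 libraries formed 4 groups of 3, named here by letters that stand for the mouse numbers in the column names: testis of wild-type mice A, B, C, testis labelled mutant of mice D, E, F, muscle of wild-type mice A, B, C, and mutant muscle of mice D, F, G.

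The targeted gene did not follow the labels in testis. Bckdk stood at 70.7 ± 2.68 normalised counts (SD, n = 3) in wild-type testis and at 124 ± 12.8 (SD, n = 3) in the labelled mutant libraries, whereas in muscle it was 2420 ± 206 in wild type and 13.8 ± 1.25 in mutants. The feature NeoR, a resistance gene listed beside the mouse genes, was higher in the labelled mutant libraries in both tissues, at 17.2 ± 3.61 against 2.53 ± 0.788 in testis and 242 ± 30.3 against 3.12 ± 0.794 in muscle. Libraries held 12852427 to 15795722 counted reads. Transcripts of other tissues differed between libraries: the summed level of 12 islet genes reached 19596 in testis A and 19492 in testis B, both wild type, against 10746 to 14007 in the other testis libraries. In muscle it reached 32543 in mutant F and 30669 in mutant G, against 13557 to 15977 elsewhere. The summed level of 9 skeletal muscle genes in testis ran from 434 in wild-type B to 13655 in wild-type C, with 6126 in wild-type A and 12063 to 13493 in the labelled mutant libraries. The part of these transcripts in the results that follow was not tested.

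Id4 and Uchl1 stood at almost the same ratio between the wild-type tissues, 8.09-fold and 8.10-fold higher in testis than in muscle. Their upstream sequences are shown because they differ in make-up at that ratio. The ratios were less alike in the groups labelled mutant. There Id4 had means of 412 normalised counts in testis and 36.4 in muscle, and Uchl1 had 400 and 45.6. RefSeq entries on GRCm38.p6 were matched for 7 of the 10 genes, and entries for Zbtb16, Dmrt1 and Sall4 were not used here. Capitals mark CpG dinucleotides. The Id4 window is chr13:48260866-48261115 on the + strand, the 250 bases before its RefSeq start, and the Uchl1 window is chr5:66675871-66676090 on the + strand, the 220 bases before its first annotated exon.
Id4: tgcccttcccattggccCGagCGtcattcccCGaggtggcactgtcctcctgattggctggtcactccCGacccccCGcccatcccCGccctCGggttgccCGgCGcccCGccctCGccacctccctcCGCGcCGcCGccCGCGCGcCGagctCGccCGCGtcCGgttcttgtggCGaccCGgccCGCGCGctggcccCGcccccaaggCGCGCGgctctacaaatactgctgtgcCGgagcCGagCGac
Uchl1: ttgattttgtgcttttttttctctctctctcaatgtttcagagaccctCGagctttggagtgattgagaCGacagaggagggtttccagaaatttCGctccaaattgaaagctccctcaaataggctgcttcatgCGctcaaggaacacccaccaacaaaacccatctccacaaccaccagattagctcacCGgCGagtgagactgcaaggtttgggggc
The Id4 window holds 35 CpG, more than in 97.0% of the 32851 promoters of the table, whereas the printed Uchl1 window holds 6. Over the 250 bases before the RefSeq start, Kit had 17 CpG, Gfra1 10, Lin28a and Uchl1 7 each, Nanos3 3 and Nanos2 0, against a median of 6 over all promoters. For 6 of the 7 genes the GENCODE M21 span given in what follows begins farther upstream: the Gfra1 and Nanos3 windows lie wholly inside the span, the Kit, Nanos2, Lin28a and Uchl1 windows in part. The motif GGGCGG, searched on both strands, occurred 5 times before Id4 and once each before Kit and Nanos3, and 32.7% of all promoters held it. CCAAT, also on both strands, occurred 2 times before Id4 and Nanos2 and once before Gfra1, against 33.8% of all promoters with at least 1. Nanos2 alone among the 7 held TATAAA, which 12.4% of all promoters held on either strand. These matches describe the letters of the windows and are no evidence of binding.

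Levels between genes were compared per kb of exon, from the exon lengths of GENCODE M21. In wild-type testis Uchl1 was the highest of the 10 at 215 ± 9.44 normalised counts per kb (SD, n = 3), which placed it above 88.1% of the 32142 features with reads there. Id4 at 90.4 ± 4.97 and Dmrt1 at 84.4 ± 14.9 per kb came next, and their libraries overlapped. Kit at 31.8 ± 3.86 and Gfra1 at 27.2 ± 4.12 per kb overlapped too. Zbtb16 (10.9 ± 2.02 per kb), Lin28a (10.7 ± 1.24), Nanos3 (8.25 ± 5.59) and Sall4 (5.86 ± 2.14) formed a lower set in which each neighbour overlapped the next. Nanos2 was the lowest at 0.178 per kb, from 1 read in 3 libraries.

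**Figure D1:**
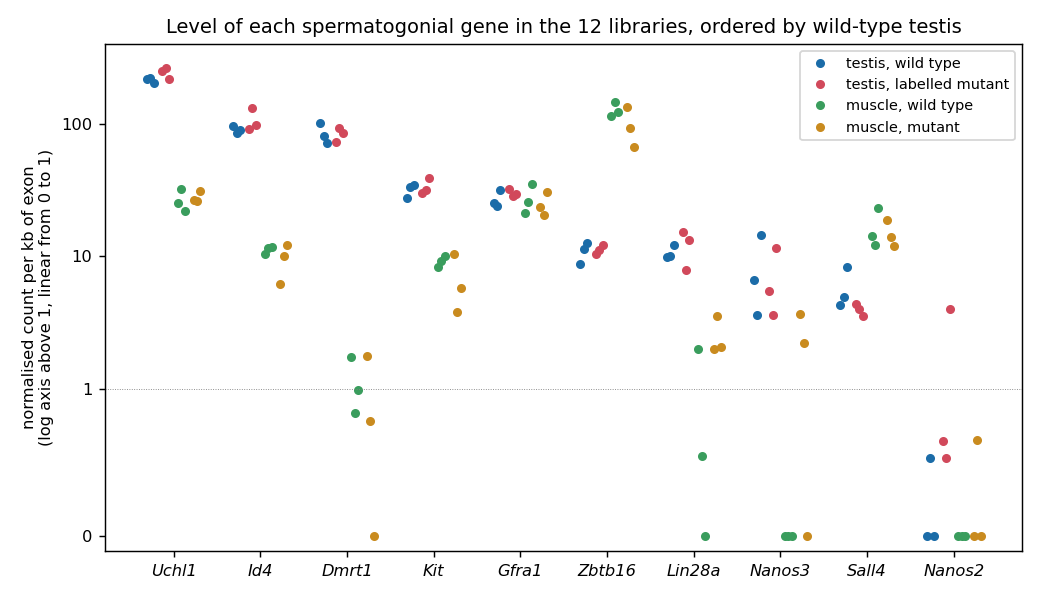
Normalised count per kb of exon (log axis above 1, linear from 0 to 1) of each gene in each of the 12 libraries, coloured by group and ordered by the mean in wild-type testis. Uchl1 lies highest in testis at 215 per kb, Zbtb16 is the highest in wild-type muscle at 128, and Gfra1 lies in the same range in all 4 groups.

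The order in the testis libraries labelled mutant was the same for the first 5 genes: Uchl1 at 245 per kb, Id4 at 107, Dmrt1 at 83.8, Kit at 33.7 and Gfra1 at 29.9. How far a gene varied between wild-type mice was set against its counting error. Uchl1 and Id4 varied with coefficients of variation of 4.39% and 5.49%, close to the 4.92% and 4.94% that counting alone gives, and Lin28a varied by 11.6% where counting gives 14.1%. Kit (12.1% against 5.47%), Gfra1 (15.2% against 7.55%) and Dmrt1 (17.7% against 6.24%) varied by more than 2 times the counting error. Sall4 at 36.6% against 16.2% and Nanos3 at 67.8% against 33.3% were the most variable genes with over 10 reads in the group. Zbtb16 varied by 18.5% against 12.1%. These figures rest on 3 libraries, and several turned in the libraries labelled mutant. There Id4 (20.4% against 4.65%), Uchl1 (9.61% against 4.75%) and Lin28a (31.8% against 13.7%) varied by more than counting gives. Gfra1 (6.38% against 7.43%), Sall4 (10.7% against 20.3%) and Zbtb16 (7.19% against 12.3%) varied by less. Kit, Dmrt1 and Nanos3 stayed above their counting error. So few libraries do not rank the genes.

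In testis, the question was whether genes of the stem cell pool differ between the genotypes as labelled. None of the 8 genes that passed the filter (10 or more normalised counts in 3 or more of the 6 libraries) was called at a Benjamini-Hochberg adjusted p under 0.05 by limma, in a comparison that called 4 of 19543 genes, or 0.0205%. Of the 8, 6 had a higher mean on the log2 scale in the labelled mutant libraries and 2 had a lower one, with a median log2 difference of 0.11 against 0.03 over all genes tested, of which 59.6% were higher. At an unadjusted p under 0.05 limma counted 1386 genes and none of the 8. The edgeR and DESeq2 tools on recovered reads called none of the 8 and had none of them at an unadjusted p under 0.05. For none of the 10 did the groups fail to overlap, against 13.4% of all genes tested. In bulk tissue, fewer cells of a type and less RNA per cell cannot be told apart.

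Gfra1 (ENSMUSG00000025089, chr19:58235604-58455909, - strand) encodes the GDNF-binding receptor of stem cells. Its normalised counts in testis were 139, 132 and 175 in wild type (mice A, B, C, in this order throughout) and 175, 155 and 162 in the labelled mutant libraries (mice D, E, F). Wild-type C lay at the top with D, so the groups overlapped. The log2 difference was 0.15 (SE 0.13, 95% interval -0.14 to 0.44, limma adjusted p = 0.847). An antisense gene, Gm16277, shares 416 exon bases with Gfra1 and stood at 84.8 ± 8.85 and 108 ± 22.0 in the same groups. The counting is not stated to use strand, so reads of the pair in the shared bases cannot be told apart. Ret, the gene of the signalling partner of GFRA1, had 30.4 ± 4.32 normalised counts (SD, n = 3) in wild-type testis and 26.4 ± 1.16 in the labelled mutant libraries, and the ligand gene Gdnf had 21.3 ± 2.56 and 16.2 ± 0.575. The Gdnf libraries did not overlap, at 22.9, 18.3 and 22.5 in wild type and 16.1, 15.7 and 16.9 in the labelled mutant libraries. Neither passed the test (limma adjusted p = 0.895 for Ret and 0.827 for Gdnf). The groups did not overlap for 13.4% of all genes tested in testis, a share that also bears on Kitl, Itga6 and Aldh1a1 in what follows.

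Kit (ENSMUSG00000005672, chr5:75574916-75656722, + strand) encodes the receptor that marks differentiating spermatogonia. It had 244, 296 and 310 normalised counts in wild-type testis and 269, 283 and 348 in the labelled mutant libraries. Library F was the highest and wild-type A the lowest, and the other 4 lay between them in mixed order. Its log2 difference was 0.08 (SE 0.12, 95% interval -0.19 to 0.35, limma adjusted p = 0.911). Kitl, the gene of its ligand, had 227 ± 19.2 normalised counts in wild type and 268 ± 4.11 in the labelled mutant libraries, with groups that did not overlap, and its log2 difference of 0.24 was not called (limma adjusted p = 0.696).

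Among the transcription regulators, Zbtb16 (ENSMUSG00000066687, chr9:48654297-48836222, - strand), a zinc finger repressor needed for stem cell maintenance, had 45.9, 60.0 and 66.8 normalised counts in wild-type testis and 55.5, 58.8 and 63.9 in the labelled mutant libraries. The 3 labelled mutant values lay inside the wild-type range. On the log2 scale the groups differed by 0.06 (SE 0.20, 95% interval -0.37 to 0.49, limma adjusted p = 0.968). Id4 (ENSMUSG00000021379, chr13:48261228-48266026, + strand), an inhibitor of DNA binding used to mark cells with stem cell activity, had 368, 330 and 347 normalised counts in wild type and 353, 509 and 376 in the labelled mutant libraries. Library E stood apart from the other 5, and D lay within the wild-type range. This gave a log2 difference of 0.23 (SE 0.13, 95% interval -0.05 to 0.50, limma adjusted p = 0.747), and without library E it was 0.07. Its antisense neighbour A330033J07Rik shares 82 exon bases and had 92.5 and 114 normalised counts in the groups.

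Sall4 (ENSMUSG00000027547, chr2:168748332-168767943, - strand), a zinc finger factor of undifferentiated spermatogonia that works with nucleosome remodelling complexes, showed the lowest log2 difference of the 8. Its normalised counts were 23.8, 27.5 and 45.9 in wild-type testis and 24.2, 22.4 and 19.5 in the labelled mutant libraries. Wild-type C was the high library, and wild-type A lay just under D. The log2 difference was -0.49 (SE 0.30, 95% interval -1.13 to 0.16, limma adjusted p = 0.758), and it was -0.21 without wild-type C and -1.03 without wild-type A and B, the libraries with more islet transcripts. Dmrt1 (ENSMUSG00000024837, chr19:25505618-25604329, + strand), which acts in Sertoli cells as well as in germ cells, had 261, 210 and 185 normalised counts in wild type and 189, 243 and 221 in the labelled mutant libraries. The wild-type libraries held both the highest and the lowest value. The group means were 219 ± 38.7 and 217 ± 27.3 (SD, n = 3), and the interval of the log2 difference ran from -0.31 to 0.31 (limma adjusted p = 0.999).

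Of the genes for RNA-binding proteins, both Nanos genes were near the limit of detection. Nanos2 (ENSMUSG00000051965, chr7:18987400-18988962, + strand), a translational repressor that keeps stem cells undifferentiated, had 0, 1 and 0 reads in wild-type testis and 1, 1 and 7 in the labelled mutant libraries. A single library, F, was above the 3 reads that a count of 0 allows, and the gene was below the filter. Nanos3 (ENSMUSG00000056155, chr8:84173731-84185217, - strand), its relative, had 7, 4 and 16 reads in wild type and 5, 4 and 12 in the labelled mutant libraries, or 7.62 ± 5.17 and 6.34 ± 3.84 normalised counts (SD, n = 3). It was also below the filter, and the groups overlapped. Lin28a (ENSMUSG00000050966, chr4:134003330-134018841, - strand), which binds let-7 precursors and messenger RNAs, had 39.7, 40.0 and 48.4 normalised counts in wild type and 61.5, 31.5 and 53.3 in the labelled mutant libraries. Libraries D and F lay above the wild-type range and E below it. The groups differed on the log2 scale by 0.14 (SE 0.26, 95% interval -0.42 to 0.70, limma adjusted p = 0.931).

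Uchl1 (ENSMUSG00000029223, chr5:66676091-66687234, + strand), a ubiquitin C-terminal hydrolase of spermatogonia that neurons also express, had 357, 362 and 333 normalised counts in wild-type testis and 408, 433 and 358 in the labelled mutant libraries. Libraries D and E lay above the wild-type range, while F fell inside it. Its log2 difference was 0.19 with the smallest standard error of the 8 genes (SE 0.09, 95% interval -0.02 to 0.39, limma adjusted p = 0.729). The antisense gene Uchl1os, with 295 shared exon bases, had 109 ± 9.08 and 113 ± 3.87 normalised counts. Genes of nerve and Schwann cells summed to 499 to 546 normalised counts in wild-type testis and 450 to 519 in the labelled mutant libraries, with Snap25, Nefl, Nefm and Prph below the filter.

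**Figure D2:**
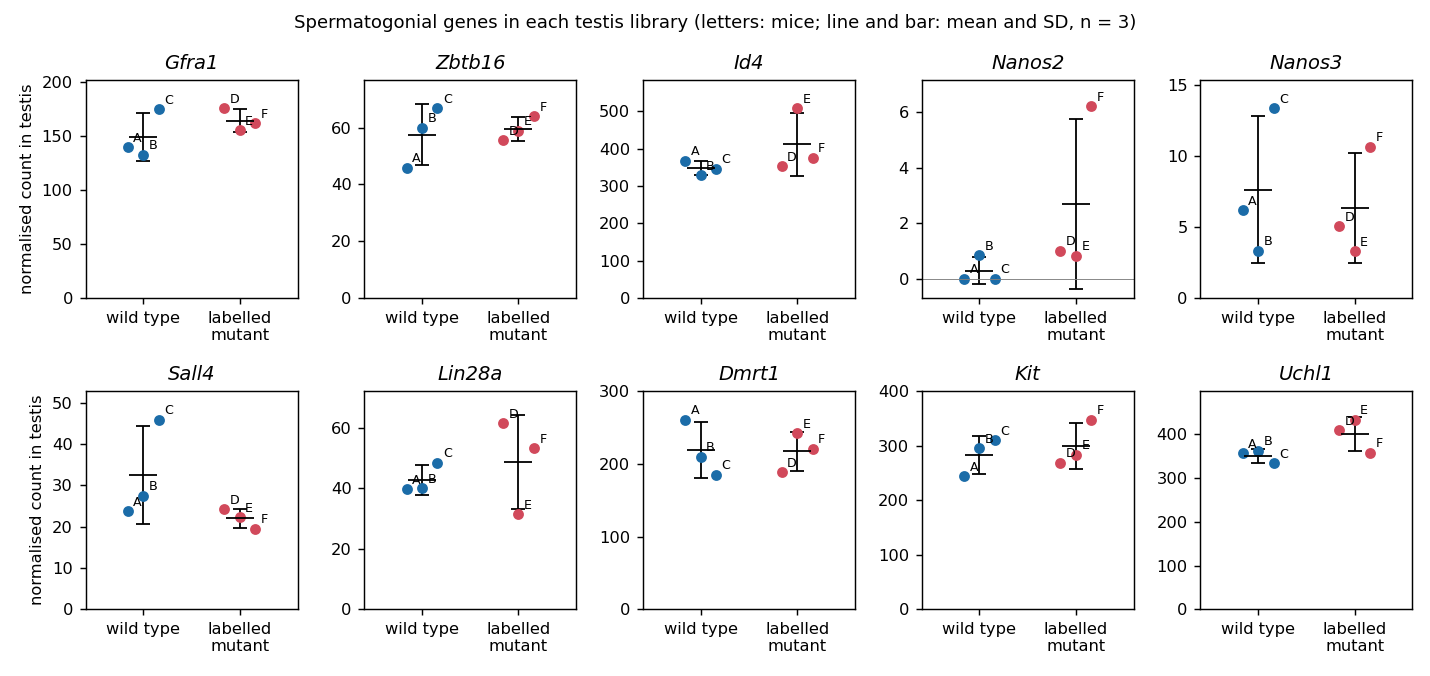
Normalised count of each of the 10 genes in the 6 testis libraries (points, with the letter of the mouse; the line and bar are mean and SD, n = 3), on linear axes that include 0. In every panel the 2 groups overlap. Id4 in library E, Sall4 in wild-type C and Nanos2 in library F (6.22, from 7 reads) stand apart above the other 5 libraries of their panels.

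Summed over the 10 genes, the normalised counts were 1462 to 1524 in wild-type testis and 1542 to 1740 in the labelled mutant libraries. The total over all features also separated the groups, with the wild-type libraries lower. As a share of all normalised counts of a library, the 10 genes took 0.0117% to 0.0121% in wild type and 0.0119% to 0.0133% in the labelled mutant libraries, with overlap. These sums follow the abundant genes, chiefly Uchl1, Id4 and Kit.

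In the wider lists of the stem cell pathway no gene was called in testis by limma, edgeR or DESeq2. Of 30 other genes of undifferentiated spermatogonia in the table, 22 were tested in testis, 9 were higher and 13 lower in the labelled mutant libraries, and 1 was at an unadjusted p under 0.05 in limma, with a median log2 difference of -0.11 against 0.03 over all genes. The smallest p values there belonged to Itga6, a laminin receptor subunit, with 192 ± 22.1 normalised counts in wild type and 157 ± 2.25 in the labelled mutant libraries (log2 difference -0.28, limma adjusted p = 0.696), and to Lin28b, the paralogue of Lin28a, with 149 ± 8.99 and 120 ± 28.8 (log2 difference -0.34, limma adjusted p = 0.729). The 3 labelled mutant libraries of Itga6 lay below the 3 wild-type ones at 154, 158 and 158 against 182, 217 and 177. The GDNF-responsive factors Etv5 and Bcl6b had 248 ± 20.0 and 65.9 ± 8.64 normalised counts in wild-type testis and 236 ± 29.0 and 66.9 ± 11.9 in the labelled mutant libraries. Neurog3, Utf1, Thy1, Tcl1, Shisa6, Piwil4, Pax7 and T were below the filter in testis.

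Genes of differentiating spermatogonia and of the response to retinoic acid split evenly, 8 higher and 8 lower of 16 tested, with 1 at an unadjusted p under 0.05 in limma and a median log2 difference of 0.01. Dmrtb1, a relative of Dmrt1 that coordinates entry into meiosis, was far more abundant than Dmrt1 and had 7276 ± 218 and 7912 ± 394 normalised counts (log2 difference 0.12, limma adjusted p = 0.696). Rarg, the retinoic acid receptor of undifferentiated cells primed to differentiate, had 45.8 ± 16.2 and 61.4 ± 4.55 (log2 difference 0.47, limma adjusted p = 0.736). Stra8, a retinoic acid target switched on at differentiation, had 157, 107 and 118 normalised counts in wild type and 115, 120 and 83.5 in the labelled mutant libraries, with overlap. Sohlh1 and Sohlh2, transcription factors of early differentiation, had limma adjusted p = 0.909 and 0.843.

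Of 25 niche signals and receptors 21 were tested, 11 were higher and 10 lower, and 2, Aldh1a1 and Kitl, were at an unadjusted p under 0.05 in limma (median log2 difference 0.02). Aldh1a1, an enzyme that makes retinoic acid, had 2175, 2326 and 2351 normalised counts in wild type and 2593, 2510 and 2657 in the labelled mutant libraries. Its groups did not overlap, and the log2 difference of 0.18 was not called (limma adjusted p = 0.696). The 13 partners of NANOS, LIN28A and SALL4 in the table were all tested, with 8 higher, 5 lower, 0 at an unadjusted p under 0.05 in limma and a median of 0.00. Dnd1, which works with NANOS2, had 44.3 ± 13.7 and 60.0 ± 9.69 normalised counts, and Tut4, the uridylyl transferase recruited by LIN28A, had 957 ± 77.6 and 883 ± 48.7 (limma adjusted p = 0.742 and 0.779).

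None of the markers of other cells was called in testis by limma, edgeR or DESeq2, and 0 to 3 per list were at an unadjusted p under 0.05 in limma. Sertoli cell genes summed to 10075 to 10522 normalised counts in wild type and 10588 to 11071 in the labelled mutant libraries, with 7 of 10 higher. Leydig cells also express Kit, and their genes summed to 6707 to 6812 and 6658 to 8798, with 6 of 7 higher, and Cyp17a1, an enzyme of androgen synthesis, had the smallest p of them (1633 ± 156 and 2223 ± 404 normalised counts, limma adjusted p = 0.696). Spermatid genes summed to 131119 to 147415 and 150140 to 159866, with 8 of 8 higher and a median log2 difference of 0.14. Meiotic genes were higher for 7 of 8 with a median of 0.11, the same median as for the 8 spermatogonial genes tested. Endothelial genes were lower for 4 of 5 with a median of -0.36, among them the VEGF receptor gene Kdr (111 ± 26.4 and 73.6 ± 7.19 normalised counts, limma adjusted p = 0.696). Peritubular genes were higher for 4 of 5, macrophage genes for 2 of 5 and nerve and Schwann cell genes for 2 of 4. Skeletal muscle genes were higher for 8 of 9 with a median of 2.06, and islet genes lower for 10 of 12 with a median of -0.26. Mast cell genes, relevant because mast cells express Kit, summed to 1.76 to 13.3 normalised counts over the 6 testis libraries. The part of these shifts in the values of the 10 genes was not tested.

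The comparison of the wild-type tissues asked which of the genes stand above the muscle background in testis. Of 8 tested genes 5 were called higher in testis and 2 lower, in a comparison where limma called 87.9% of 19994 genes (50.6% higher and 37.3% lower in testis). A call is therefore the rule between these tissues, and the sizes carry the comparison. The median log2 difference of the 8 was 2.38, against 0.48 over all genes tested, and the latter became 0.28 under TMM scaling. Dmrt1 and Lin28a were under 10 normalised counts in every wild-type muscle library and passed the filter through the testis libraries alone. Their direction was thus fixed by the filter, so their calls and p values are no evidence of it. Both are among the 5 called higher and in the median of 2.38.

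Dmrt1 had the largest difference. It had 4.55, 2.16 and 2.57 normalised counts in wild-type muscle, from 4, 2 and 2 reads, and its testis mean was 70.7-fold higher (log2 difference 5.78, SE 0.31, limma adjusted p = 4.34e-07). Lin28a had 7.97, 2.16 and 0 normalised counts in wild-type muscle, from 9 reads in all, against a mean of 42.7 in wild-type testis (log2 difference 3.84, SE 0.70, limma adjusted p = 8.92e-04). Its difference was 4.61 without muscle A and 3.03 without muscle C. Both genes were near the limit of detection in muscle, where a count of 0 allows up to 3.25 to 3.85 normalised counts in a wild-type library. Id4 at 39.8, 44.4 and 44.9 and Uchl1 at 41.0, 53.0 and 35.9 normalised counts were above that limit in each wild-type muscle library. Their log2 differences were 2.99 (SE 0.14, limma adjusted p = 2.09e-07) and 3.01 (SE 0.18, limma adjusted p = 7.26e-07). Kit had 74.0, 82.2 and 89.9 normalised counts in wild-type muscle, and testis was 3.45-fold higher (log2 difference 1.77, SE 0.15, limma adjusted p = 7.12e-06). Nanos2 and Nanos3 had 0 reads in each of the 3 wild-type muscle libraries.

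Zbtb16 ran the other way. Its 606, 770 and 652 normalised counts in wild-type muscle were 11.7-fold the testis mean (log2 difference -3.54, SE 0.17, limma adjusted p = 2.15e-07), and it was the highest of the 10 genes there at 128 ± 16.1 per kb, above 82.3% of the 25407 features with reads in muscle. Sall4 had 78.5, 67.1 and 128 normalised counts in wild-type muscle, 2.82-fold the testis mean (log2 difference -1.47, SE 0.35, limma adjusted p = 0.00386). Every muscle library of Sall4 lay above every testis library. An antisense gene, Gm14261, shares 526 exon bases with Sall4 and was itself at 64.7 ± 21.1 normalised counts in wild-type muscle and 1.70 ± 0.838 in wild-type testis (log2 difference -4.60, limma adjusted p = 5.22e-06). Whether any of the muscle reads counted for Sall4 come from that strand cannot be told here. The same limit holds for Uchl1, Id4, Gfra1 and Lin28a, whose antisense neighbours were higher in wild-type testis than in wild-type muscle. Uchl1os stood at 109 against 12.5 normalised counts and A330033J07Rik, beside Id4, at 92.5 against 8.81. Gm16277, beside Gfra1, stood at 84.8 against 30.3, and Gm13061, beside Lin28a, at 6.83 against 0. Gfra1 had 116, 140 and 194 normalised counts in wild-type muscle, which overlapped testis (log2 difference 0.01, SE 0.21, 95% interval -0.48 to 0.51, limma adjusted p = 0.959). That sign is not fixed, since the difference was -0.19 under TMM scaling. Its partner receptor gene Ret was at 197 ± 13.9 normalised counts in wild-type muscle, above testis (log2 difference -2.66, limma adjusted p = 2.57e-06).

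Some testis transcripts were found in every muscle library, which bears on the low values. The 100 most abundant testis genes, taken among genes whose muscle mean was under 3% of their testis mean, a choice that caps this measure, stood in muscle at a median of 1.08%, 1.01% and 1.20% of their testis level in the wild-type libraries and at 1.27%, 0.450% and 0.446% in mutants D, F and G. Dmrt1 stood at 2.09%, 0.992% and 1.18% of its mean over the 6 testis libraries in wild-type muscle and at 2.09%, 0.934% and 0% in mutants, so it was near that background. Kit, at 25.4% to 30.8% in wild-type muscle, and Id4, at 10.5% to 11.8%, and Uchl1, at 9.58% to 14.1%, were above it by several times. In the other direction, the 100 most abundant muscle genes, chosen by the same limit, stood in testis at 0.291% to 0.856% of their muscle level, while Zbtb16 in testis was at 7.69% to 11.2% and Sall4 at 22.5% to 52.8% of the mean over the 6 muscle libraries.

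**Figure D3:**
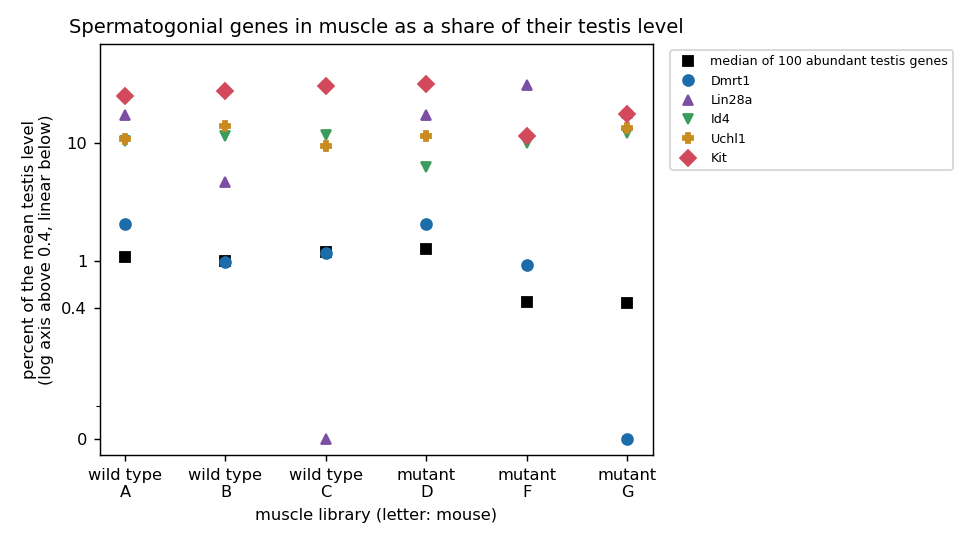
Level of 5 of the genes in each muscle library as a percentage of their mean over the 6 testis libraries (log axis above 0.4, linear below), with the median of 100 abundant testis genes as squares. Dmrt1 lies near the squares, whereas Kit lies above them in every library, at 25.4% to 30.8% in wild type and at 11.5% in mutant F.

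In muscle none of the 6 genes tested was called between the genotype groups, where limma called 6 of 16246 genes, or 0.0369%. One gene was higher and 5 were lower in mutants, with a median log2 difference of -0.20 against -0.04 over all genes. At an unadjusted p under 0.05 limma counted 1546 genes and none of the 6, and edgeR and DESeq2 called none of them. Bckdk followed the labels in muscle only, where it was nearly absent in the mutants, whereas NeoR followed them in both tissues.

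Zbtb16 had 606, 770 and 652 normalised counts in wild-type muscle and 707, 494 and 350 in mutants D, F and G. Mutant D lay inside the wild-type range and F and G below it. The log2 difference was -0.44 (SE 0.22, 95% interval -0.93 to 0.06, limma adjusted p = 0.540), and without mutant D it was -0.69 (limma adjusted p = 0.0666). That fit without D called many more genes than the fit to all muscle libraries. Without F and G, which leaves mutant D alone, the Zbtb16 difference was 0.072. Kit had 74.0, 82.2 and 89.9 normalised counts in wild type and 93.5, 33.6 and 51.8 in mutants. Again D was high, here the highest of all 6, and F and G were the lowest. In log2 units the difference was -0.57 (SE 0.33, 95% interval -1.31 to 0.16, limma adjusted p = 0.564), and it was -0.95 without D (limma adjusted p = 0.0816). Without F and G, the libraries with more islet transcripts, it was 0.19.

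Mast cell genes in muscle summed to 348 to 433 normalised counts in wild type and 317 to 321 in mutants, with 4 of 4 tested lower, and the part of mast cells in the Kit values was not tested. In mutants D, F and G the sums were 317, 318 and 321. The 100 abundant testis genes described above stood at a median of 1.27%, 0.450% and 0.446% of their testis mean in the same mutants, and their part in the Kit values was not tested either. On that scale Kit ran from 11.5% to 32.1% over the 6 muscle libraries.

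For the other genes in muscle the groups overlapped with 1 exception. Gfra1 had 130, 112 and 168 normalised counts in mutants (log2 difference -0.12, limma adjusted p = 0.867) and Sall4 had 104, 77.4 and 66.3 (log2 difference -0.11, limma adjusted p = 0.901). Id4 had 23.9, 38.7 and 46.6 (log2 difference -0.28, limma adjusted p = 0.739), with mutant D the lowest library. That difference was -0.016 without mutant D and -0.82 without F and G. Uchl1 at 43.3, 42.8 and 50.8 gave a log2 difference of 0.09 (limma adjusted p = 0.921). Lin28a was the exception, with 7.98, 14.3 and 8.29 normalised counts in mutants against 7.97, 2.16 and 0 in wild type. Wild-type A and mutant D both had 7 reads, so that separation comes from scaling alone, and the gene was below the filter. Groups did not overlap for 14% of the genes tested in muscle. Dmrt1 had 4, 2 and 0 reads in mutants, Nanos3 had 3, 2 and 0, and Nanos2 had 0, 1 and 0.

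In the wider lists no gene was called in muscle by limma, edgeR or DESeq2. Other genes of undifferentiated spermatogonia were higher for 7 and lower for 11 of 18 tested, with 2 at an unadjusted p under 0.05 in limma. These were Bcl6b, at 445 ± 77.9 normalised counts in wild type and 305 ± 31.4 in mutants, and Etv5, at 287 ± 29.8 and 216 ± 44.7 (limma adjusted p = 0.519 for each). Differentiation genes were higher for 8 of 11, niche genes for 12 of 21 and partner genes for 3 of 12. Among the partners Tut4 had 421 ± 39.6 and 287 ± 71.8 normalised counts (limma adjusted p = 0.519), with mutants F and G the lowest, as for Zbtb16.

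**Figure D4:**
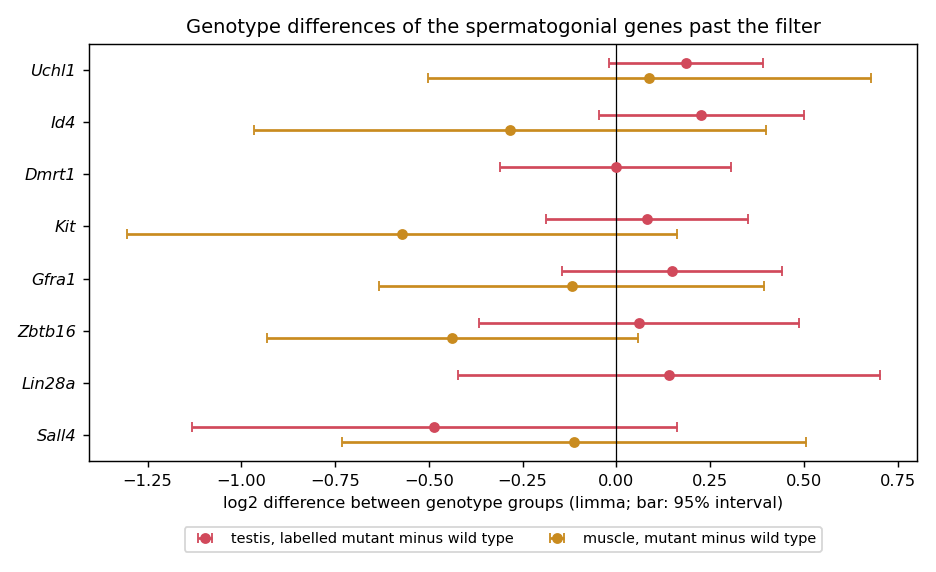
Log2 difference between the genotype groups in testis and in muscle (points) with 95% intervals from limma for the 8 genes past the filter; Dmrt1 and Lin28a were tested in testis only. Every interval includes 0, and that of Kit is wider in muscle, at -1.31 to 0.16 against -0.19 to 0.35 in testis.

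Whether the genotype difference itself changed between the tissues was tested for 6 genes. None was called by limma, edgeR or DESeq2 in the full set of libraries, where limma called 2 of 14677 genes, or 0.0136%, and 1275 genes but none of the 6 had an unadjusted p under 0.05. The difference of differences (testis minus muscle, log2) was 0.65 for Kit (SE 0.40, 95% interval -0.21 to 1.51, limma adjusted p = 0.621), 0.51 for Id4 (limma adjusted p = 0.623) and 0.50 for Zbtb16 (limma adjusted p = 0.628). Gfra1 stood at 0.27, Uchl1 at 0.10 and Sall4 at -0.37. Over the alternatives the Kit value ran from 0.31 to 1.03. The highest came without mutant muscle D, where Kit was called (limma adjusted p = 0.0428) among 951 genes called, and the adjusted p was as high as 0.813 under another alternative.

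The genes whose profiles over the 12 libraries were most like those of 4 of the genes were taken from 11745 genes with a mean of at least 50 in testis, by the root mean square difference of centred log2 values. For Zbtb16 they were Cdnf (0.11), Zfp106 (0.14) and Nfic (0.16). Those nearest to Gfra1 were Krit1 (0.12), Zfp280d (0.14) and Smndc1 (0.14), each at a nearly equal level in the 2 tissues. Kit was nearest to Kdm2b (0.22), Klhl11 (0.22) and Cdh23 (0.23), and Uchl1 to Mxd1, Kif3a and Atxn7l3b (0.15 each). The 12 libraries share the difference between the tissues, and these likenesses carry no test.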

How the data were processed

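The authors deposited 1 table of normalised counts, a signal in which reads per gene are divided by a size factor per library, and 1 table of regularised log2 values for 27384 features. Tools listed in the submitters' processing notes are DESeq2 1.46.0, HTSeq 0.11.2, HISAT2 2.1.0, fastp 0.23.4 and Picard 1.119, with GRCm38.p4 as the build. All values of the normalised table were whole multiples of the value of 1 read to within 0.001, so reads were recovered. In testis library D 26 values per table were not numbers, none of them for the 10 genes. The genes and lists were chosen with earlier results of these data known. Titles give replicate numbers that the columns do not carry, so columns were assigned to groups only.

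Within each comparison log2(normalised count + 1) was fitted with limma 3.58.1 under R 4.3.3 (two-sided; lmFit, then eBayes with a trend), for genes past the filter of 10 in 3 of 6 libraries, with Benjamini-Hochberg adjustment over all genes tested and calls at an adjusted p under 0.05. The pseudocount shrinks the log2 ratio of low values. The 10 genes, and from each other list the 2 with the smallest p (none was called), were named by rule. Ret, Gdnf, Etv5, Bcl6b, Stra8, Sohlh1 and Sohlh2 were named for their role after their values were seen. Scripts were tested on simulated counts. Alternatives used edgeR 4.0.16 and DESeq2 1.42.0 on recovered reads. Floors from reads cover counting error only. The printed intervals come from the standard errors of the limma fits, which rest on the spread between libraries. RefSeq protein sequences were not used here.

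Wild-type mice A, B and C and mice D and F gave both tissues, by the numbers in the column names. The deviations of the 2 tissues of a mouse from their group means correlated at -0.042, 0.004 and -0.013 for A, B and C and at -0.020 and -0.031 for D and F over 12778 genes.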

Additional observations from a re-analysis of the deposited data

How the results depend on the processing

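No alternative called any of the 10 genes in the testis or the muscle genotype comparison. The number of genes called in testis, 4, became 1 with a pseudocount of 0.5, 1 with a mean of at least 50, 2 with TMM, 2 with the rlog values, 10 with DESeq2, 0 without a trend in limma (1183 at an unadjusted p under 0.05) and 1 without the libraries with more islet transcripts, and 1 to 6 without a replicate. In muscle the 6 became 14 with no filter, 36 with DESeq2, 28 with all 12 libraries in 1 model and 3 to 497 without a replicate, the 497 without mutant D. For the difference between tissues the 2 became 1 with no filter, 1 with a mean of at least 50, 1 with edgeR, 50 with DESeq2 and 1 to 951 without a replicate, the 951 again without mutant muscle D, where 1 of the 10 genes, Kit, was called (0 to 1 without a replicate). The cause of these changes was not tested.

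Signs of small differences turned. In testis, without the islet-rich libraries, log2 differences were -0.054 for Kit, 0.22 for Dmrt1, -0.091 for Gfra1, -0.044 for Lin28a and -0.17 for Zbtb16, with wild-type C alone on 1 side and assumed to vary like the others. Without a replicate they ran from -0.029 to 0.16 for Kit, -0.11 to 0.13 for Dmrt1, -0.052 to 0.42 for Lin28a and -0.093 to 0.17 for Zbtb16. In muscle, without the islet-rich libraries (mutant D alone), they were 0.19 for Kit, 0.24 for Sall4 and 0.072 for Zbtb16, and without a replicate they ran from -0.29 to 0.081 for Gfra1, -0.31 to 0.16 for Sall4 and -0.035 to 0.24 for Uchl1. Between wild-type tissues Gfra1 was at -0.061 with the median of ratios, -0.19 with TMM, -0.20 with edgeR, -0.10 with DESeq2 and -0.15 to 0.21 without a replicate. The difference between tissues for Uchl1 ran from -0.054 to 0.22 without a replicate.

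With the mouse as replicate block, 17403 genes and 7 of the 10 were called between wild-type tissues (17575 and 7 without), and 2 genes and 0 of the 10 for the difference between tissues, so the block changed no call for the 10 genes. The genotype groups of a tissue share no mice, so no analysis paired by mouse was possible between them. Dmrt1 and Lin28a fall below the filter between tissues when a testis library is left out, and Nanos2 was below it in every comparison that used one. Nanos2 and Nanos3 had 1 and 27 reads over the wild-type testis libraries at this depth and were below the filter there.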
